A study of Mus musculus with 34 samples.

Results

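Genes of the choroid plexus were read in RNA-seq of the dorsal hippocampus of 8 mice. They are 10 of the 54532 genes in the count table, *Ttr*, *Enpp2*, *Folr1*, *Kl*, *Clic6*, *Aqp1*, *Slc4a5*, *Otx2*, *Calml4* and *Prlr*, and they were taken by gene symbol. They were chosen by the spread of their CPM between these same libraries, so that this spread is given as a description and carries no test. The mice were adult male C57BL/6J mice of 2 to 3 months, and no transgene or drug is named for either group. The homecage group held 4 mice, and the SOR group held 4 mice killed 1 h after training in spatial object recognition, in which a mouse explores an arena with objects at fixed places. Each mouse gave 1 library, and all members passed the filter on low counts that left 22018 genes. The other samples of the series, which make 34 in all, were not analysed here.

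The choroid plexus is a fringe of vascular tissue that hangs in the ventricles of the brain, and in the lateral ventricle it lies against the hippocampus. Its core is stroma with leaky vessels, and a sheet of epithelial cells around that core secretes cerebrospinal fluid by moving sodium, chloride, bicarbonate and water from blood to ventricle. The epithelium also makes carrier proteins and growth factors for the fluid, and takes up folate and hormones from the blood. Neurons and glia of the hippocampus make little *Ttr*, while *Enpp2* is also made by oligodendrocytes and *Kl* by some neurons.

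All 10 members varied between libraries in a like order. Every member was highest in SOR replicate 1, which was the highest library for 15.1% of all genes tested, and every member had its 3 lowest values in homecage replicates 2 and 3 and in SOR replicate 4, a set of lowest libraries shared by 2.55% of all genes tested. The highest library exceeded the lowest by 6.80 times for *Kl* and by 918 times for *Ttr*, with a median of 53.6 over the members against 1.43 over all genes tested. These ratios fell when certain single libraries were left out, and that of *Ttr* stayed wide. It was 178 without homecage replicate 2 and 247 without SOR replicate 1. Without SOR replicate 1, the ratio of *Kl* was 2.60 and the median 12.1. The groups overlapped for all 10 members, as they did for most genes tested, of which 6.94% did not overlap. In the comparison of SOR with homecage by the quasi-likelihood test of edgeR, a gene was called where the fold change exceeded 1.4 with an adjusted p below 0.05. Of the members 0 were called, against 0.173% of all genes tested (0.15% in the direction of higher in SOR), and 0 passed on the adjusted p alone, against 0.309%. In bulk tissue, more cells of a type and more RNA per cell cannot be told apart.

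Values are given as CPM, the count of a gene relative to a library size that was scaled by the upper quartile of the library. *Ttr*, which lies on chromosome 18, encodes transthyretin, the carrier of thyroxine and of retinol-binding protein, and is the main secreted product of the choroid plexus. It was at 997, 4.04, 39.8 and 800 CPM in homecage replicates 1 to 4 and at 3710, 802, 722 and 20.8 CPM in SOR replicates 1 to 4. Low and high libraries were thus found in both groups, and SOR replicate 1 stood 3.72 times above the next library. The group means were 460 ± 513 CPM (SD, n = 4) in homecage and 1314 ± 1636 CPM (SD, n = 4) in SOR. *Ttr* alone took 0.000403% of all counts in homecage replicate 2 and 0.383% in SOR replicate 1. About the group means its log2 level had an SD of 3.48, rank 2 among 16352 genes that averaged 1 CPM or more.

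*Enpp2* (chr15:54838901-54952892, minus strand, GRCm38) encodes autotaxin, a secreted enzyme that makes lysophosphatidic acid. Its CPM was 841, 224, 256 and 708 in homecage replicates 1 to 4 and 2038, 708, 599 and 221 in SOR replicates 1 to 4. The same libraries were low and high as for *Ttr*, but the lowest of them still held 10.8% of the highest. *Enpp2* was 508 ± 314 CPM in homecage and 892 ± 793 CPM in SOR (SD, n = 4 each). Per kilobase of exon, *Ttr* and *Enpp2* had the highest mean levels of the members, 748 and 121 CPM per kilobase, and the others lay between 1.02 for *Otx2* and 5.18 for *Clic6*.

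**Figure D1:**
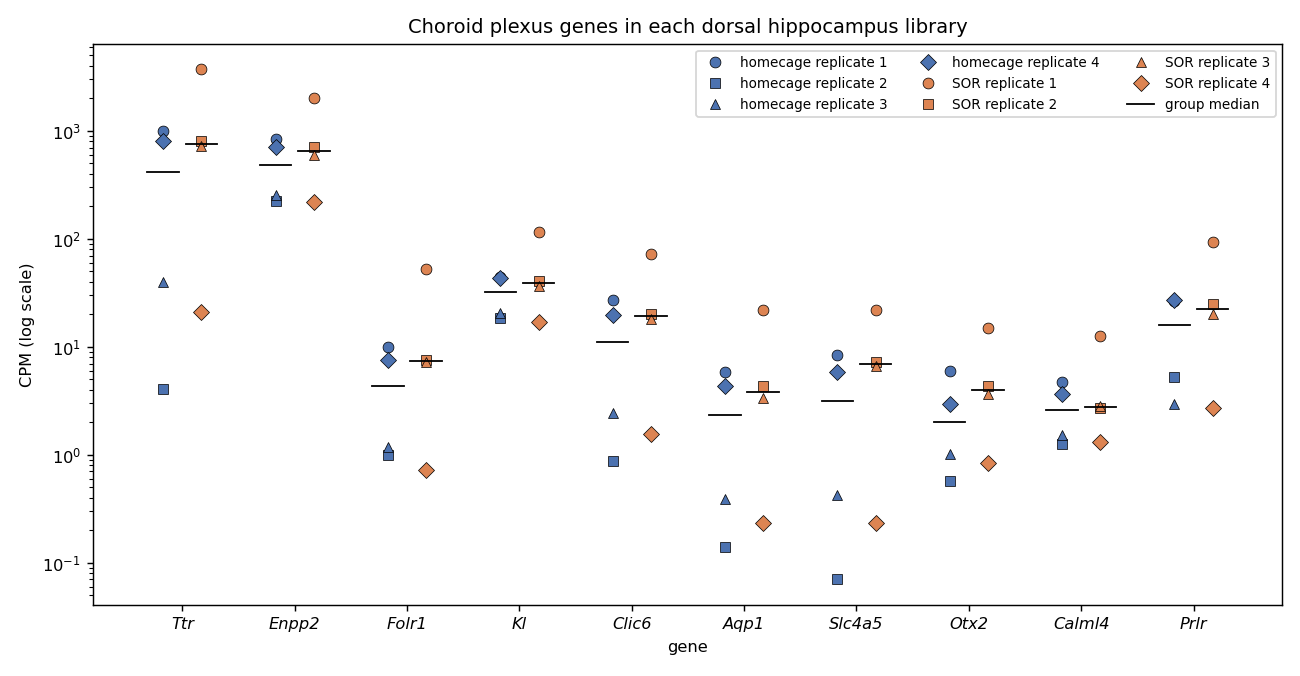
CPM of the 10 members (vertical axis, log scale) in each library. Blue points are the 4 homecage libraries, orange points the 4 SOR libraries, each shape is a replicate number, and bars are group medians. The groups overlap for every gene, SOR replicate 1 is at the top of each column, and homecage replicates 2 and 3 and SOR replicate 4 are at the bottom.

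3 members encode a receptor or a coreceptor. *Folr1* (chr7:101858331-101870788, minus strand) encodes the folate receptor alpha, which carries folate across the epithelium into the fluid. It was at 10.0, 0.997, 1.18 and 7.51 CPM in homecage replicates 1 to 4 and at 53.05, 7.60, 7.22 and 0.727 CPM in SOR replicates 1 to 4. Its step from the highest library to the next, 5.30 times, was the widest among the members, and without SOR replicate 1 its range was 13.8 times instead of 73.0. *Prlr* (chr15:10177238-10349180, plus strand) encodes the prolactin receptor. Its homecage values were 26.6, 5.28, 2.93 and 26.9 CPM and its SOR values 92.7, 25.0, 20.0 and 2.71 CPM, in the order of the replicates. *Kl* (chr5:150952607-150993817, plus strand) encodes klotho, the coreceptor of FGF23, which is also shed into the fluid. It had the narrowest range of the members, with 44.5, 18.4, 20.7 and 43.5 CPM in homecage replicates 1 to 4 and 116, 40.7, 36.7 and 17.1 CPM in SOR replicates 1 to 4.

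The transport proteins of the epithelium had the widest ranges after *Ttr*. *Slc4a5* (chr6:83219828-83304945, plus strand) encodes a sodium bicarbonate cotransporter of the apical membrane. It was at 8.34, 0.0702, 0.428 and 5.82 CPM in homecage replicates 1 to 4 and at 21.9, 7.19, 6.71 and 0.236 CPM in SOR replicates 1 to 4, a range of 312 times that was 93.0 times without homecage replicate 2 and 119 times without SOR replicate 1. *Aqp1* (chr6:55336432-55348555, plus strand), the water channel of the same membrane, followed it with a range of 155 times, which was 92.1 and 41.9 times without these libraries. Its CPM was 5.89, 0.140, 0.393 and 4.30 in homecage and 21.7, 4.31, 3.36 and 0.236 in SOR, in the order of the replicates. *Clic6* (chr16:92485736-92541243, plus strand) encodes a protein of the intracellular chloride channel family and was at 27.1, 0.884, 2.43 and 19.8 CPM in homecage replicates 1 to 4 and at 72.02, 20.1, 18.2 and 1.55 CPM in SOR replicates 1 to 4. These low values rest on few reads: counting error alone, as the square root of the count, was 42.9% of the lowest count of *Slc4a5*, 31.6% of that of *Aqp1* and 12.6% of that of *Clic6*, far less than the ranges given.

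*Otx2* (chr14:48657677-48673819, minus strand) encodes a homeodomain transcription factor that the choroid plexus needs to form and that the adult epithelium secretes. It was at 6.01, 0.576, 1.02 and 2.97 CPM in homecage replicates 1 to 4 and at 14.8, 4.36, 3.67 and 0.844 CPM in SOR replicates 1 to 4. Some of its exon bases are shared with *Otx2os1* on the other strand and with *Gm49154* on its own, whose counts over all libraries came to 4.44% and 1.46% of those of *Otx2*, and whether the counting used strand is not given in the sources used here. *Calml4* (chr9:62858080-62875921, plus strand) encodes a protein like calmodulin, which binds calcium. It was at 4.69, 1.25, 1.53 and 3.65 CPM in homecage and at 12.5, 2.74, 2.83 and 1.32 CPM in SOR, in the order of the replicates. For both genes the libraries above and below the mean were those of *Ttr*, except that *Calml4* in SOR replicates 2 and 3 lay just under its own mean on the log2 scale.

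Promoter sequence was at hand for 6 members, from RefSeq on GRCm38.p6, as windows of 250 bases before to 50 bases after a transcript start. Of these, 4 windows are shown, those of *Slc4a5* and *Aqp1*, which had the widest ranges between libraries among the genes with a window, that of *Kl*, which had the narrowest, and the window of *Otx2* in which the searched letters were found. Capitals mark GGATTA, which is TAATCC read on the other strand, the core letters bound by homeodomains of the OTX type. All sequences run 5′ to 3′ on the strand of the gene.
*Slc4a5*, chr6:83237125-83237424, plus strand: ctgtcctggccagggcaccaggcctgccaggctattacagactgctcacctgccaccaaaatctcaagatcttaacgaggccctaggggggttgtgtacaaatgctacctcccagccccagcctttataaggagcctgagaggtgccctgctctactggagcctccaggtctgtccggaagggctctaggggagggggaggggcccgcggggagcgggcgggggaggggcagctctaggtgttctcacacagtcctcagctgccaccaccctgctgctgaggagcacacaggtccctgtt
*Aqp1*, chr6:55336049-55336348, plus strand: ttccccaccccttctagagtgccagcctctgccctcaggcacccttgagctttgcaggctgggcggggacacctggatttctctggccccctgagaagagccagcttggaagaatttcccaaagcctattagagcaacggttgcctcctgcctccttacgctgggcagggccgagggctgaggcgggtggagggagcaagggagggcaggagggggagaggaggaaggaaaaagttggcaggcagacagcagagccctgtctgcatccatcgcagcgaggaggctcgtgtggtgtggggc
*Kl*, chr5:150952357-150952656, plus strand: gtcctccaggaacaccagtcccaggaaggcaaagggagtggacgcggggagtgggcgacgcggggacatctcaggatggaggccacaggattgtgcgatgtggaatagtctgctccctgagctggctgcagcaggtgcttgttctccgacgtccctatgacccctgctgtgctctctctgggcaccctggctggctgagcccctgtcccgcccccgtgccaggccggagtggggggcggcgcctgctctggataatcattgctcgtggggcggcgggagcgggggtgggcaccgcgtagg
*Otx2*, chr14:48665060-48665359, minus strand: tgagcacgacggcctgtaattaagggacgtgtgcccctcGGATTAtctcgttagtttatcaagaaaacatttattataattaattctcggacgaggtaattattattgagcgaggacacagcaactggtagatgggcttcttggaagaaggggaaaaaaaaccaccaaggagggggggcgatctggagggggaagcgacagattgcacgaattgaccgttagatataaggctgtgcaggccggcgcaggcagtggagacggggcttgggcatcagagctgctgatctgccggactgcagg
The match in the *Otx2* window begins 211 bases before the start. TAATCC on either strand was found in 1 of the 11 member windows and in 7.06% of all 32851 windows, and TATAAA on the gene strand in 1 of 11, another start of *Otx2*, and in 8.32% of all. The *Aqp1* and *Slc4a5* windows were both 62.7% G and C and that of *Kl* 67.3%, against a median of 52.7% over all windows. *Ttr*, *Enpp2*, *Folr1* and *Clic6* are named only. A match of letters is a description of the window and no site.

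To put the members on 1 scale, the choroid level of a library was taken as the median over the members of the log2 of CPM plus 0.1, after the mean of each gene over the 8 libraries was taken off. It was 1.12, −2.08, −1.89 and 0.81 in homecage replicates 1 to 4 and 2.83, 0.76, 0.57 and −2.41 in SOR replicates 1 to 4. The lowest and the highest level were both SOR libraries, and 3 libraries lay well under the other 5. Without *Enpp2* and *Kl*, which other cells of the hippocampus also express, the level ran from −2.62 in homecage replicate 2 to 3.03 in SOR replicate 1. As a share of all counts, the members came to 0.196%, 0.0255%, 0.0333% and 0.159% in homecage replicates 1 to 4 and to 0.635%, 0.160%, 0.142% and 0.0264% in SOR replicates 1 to 4. Depth differed little beside this: the deepest library, homecage replicate 4 with 81525977 counts, and the shallowest, SOR replicate 4 with 51406011, had levels of 0.81 and −2.41, and homecage replicate 2, the third deepest with 71412170 counts, was at −2.08.

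**Figure D2:**
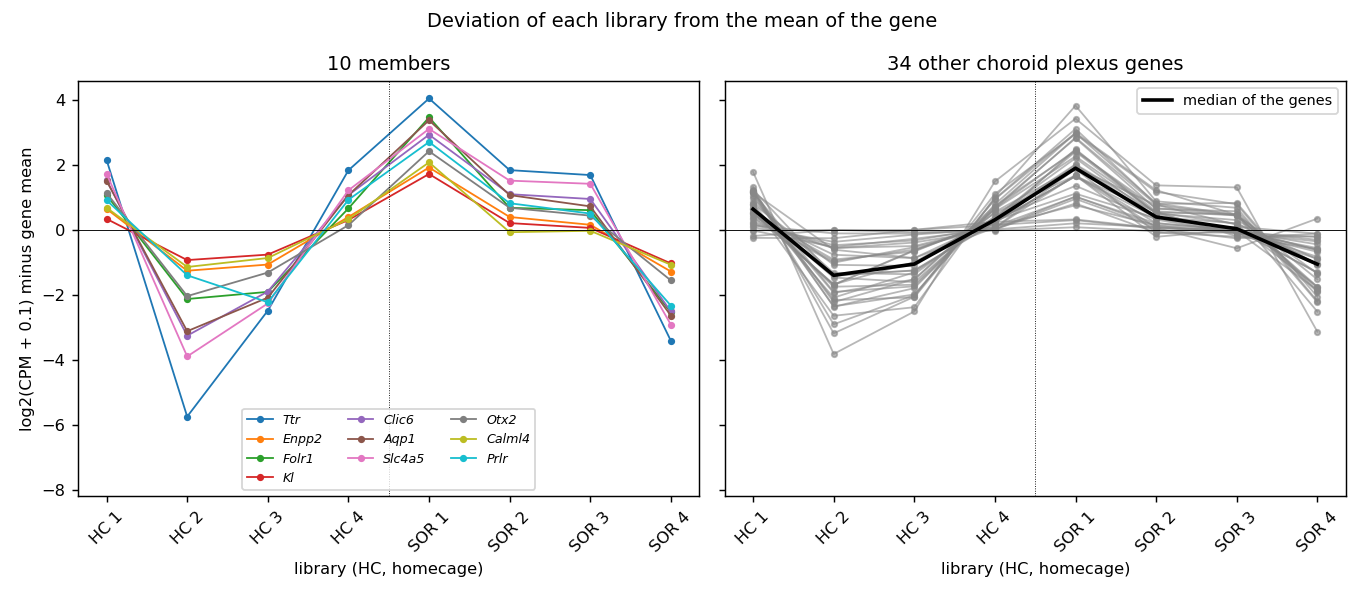
Log2 of CPM plus 0.1 in each library, minus the mean of the gene over the 8 libraries (vertical axis), for the 10 members (left, 1 color per gene) and for 34 other genes of the choroid plexus epithelium (right, grey, with their median in black). Lines join the values of 1 gene. Members drop in homecage replicates 2 and 3 and in SOR replicate 4 and peak in SOR replicate 1, and the median of the other genes runs from −1.39 to 1.91 with the same libraries low and high.

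In the 5 libraries with the most *Ttr*, the proportions of the other members to *Ttr* ranged by 1.27 to 1.73 times. *Ttr* itself was at 722 to 997 CPM in 4 of them and at 3710 CPM in SOR replicate 1, so that its wide span rests on 1 library. For each 1000 CPM of *Ttr*, *Aqp1* lay between 4.66 and 5.90 CPM in these 5 libraries, a range of 1.27 times. *Prlr* lay between 25.0 and 33.6 CPM per 1000 CPM of *Ttr* and *Calml4* between 3.37 and 4.70. The widest of the 9 ranges was that of *Kl*, 1.73 times, with its lowest value of 31.4 in SOR replicate 1. *Otx2*, *Enpp2* and *Slc4a5* followed with 1.62, 1.61 and 1.57 times. *Enpp2*, *Clic6*, *Slc4a5*, *Calml4* and *Prlr* also had their lowest proportions in SOR replicate 1, with *Enpp2* at 549 against 830 to 885 in the other 4 libraries. *Folr1* was the only member with its highest proportion in SOR replicate 1, at 14.3 against 9.38 to 10.0 in the other 4 libraries.

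In the 3 libraries with little *Ttr* the proportions parted more widely. *Slc4a5* stayed nearest to *Ttr*, with 10.8, 11.3 and 17.4 CPM per 1000 CPM of *Ttr* in homecage replicate 3, SOR replicate 4 and homecage replicate 2, against 5.91 to 9.29 in the other 5. *Enpp2* moved to 6442, 10611 and 55510 in the same order, and *Kl* to 521, 823 and 4552. In homecage replicate 2 the proportion was 1.87 times the highest of the 5 other libraries for *Slc4a5*, 5.88 times for *Aqp1*, 8.05 times for *Clic6*, 17.2 times for *Folr1* and 23.6 times for *Otx2*. It was 38.8 times for *Prlr*, 62.7 times for *Enpp2*, 65.8 times for *Calml4* and 83.8 times for *Kl*. Members thus differed in the level at which they remained when *Ttr* was lowest, 18.4 CPM for *Kl* and 0.0702 CPM for *Slc4a5* in homecage replicate 2.

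**Figure D3:**
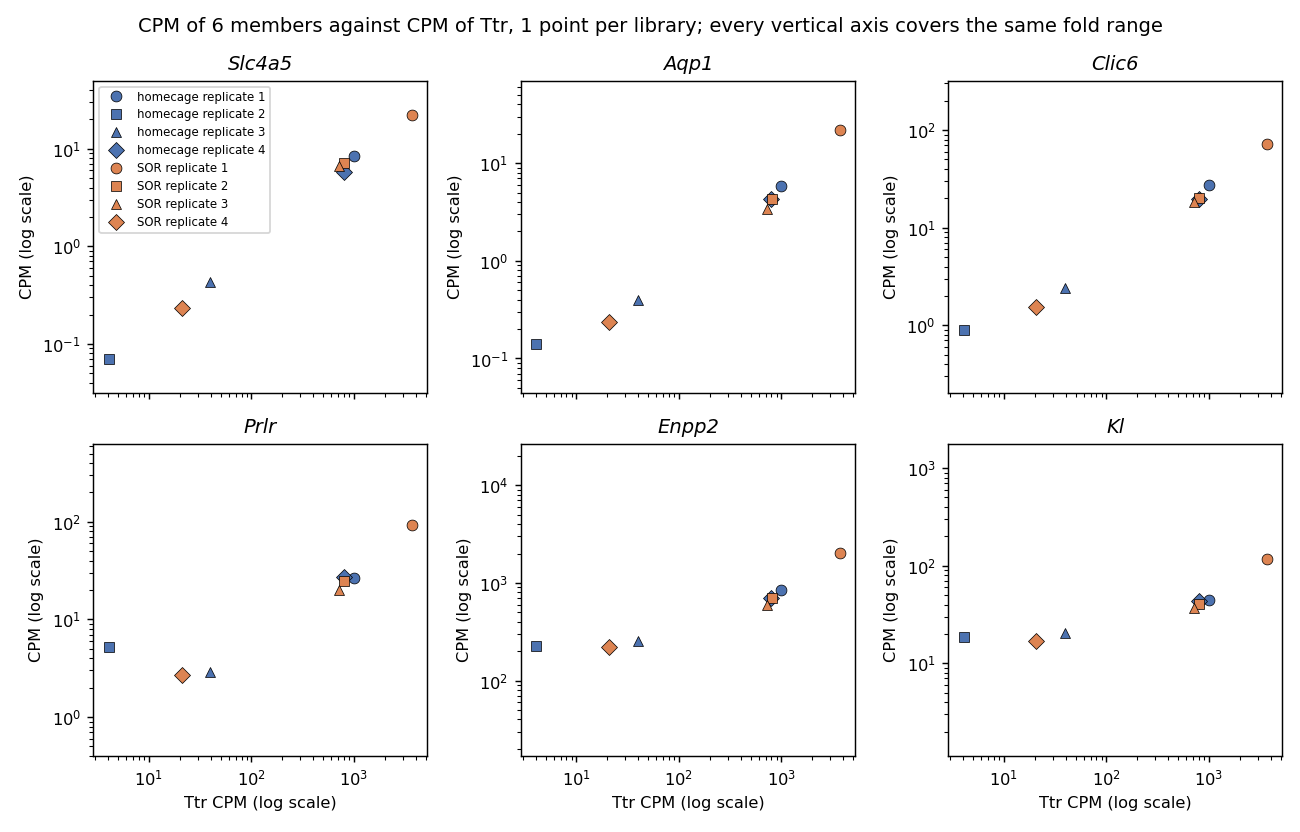
CPM of 6 members (vertical axes, log scale, each covering the same fold range) against CPM of *Ttr* (horizontal axes, log scale), 1 point per library, blue for homecage and orange for SOR. *Slc4a5*, *Aqp1* and *Clic6* fall with *Ttr* over the whole range, while *Prlr*, *Enpp2* and *Kl* level off in the 3 libraries with the least *Ttr*.

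Between the groups, the fitted log2 fold change of SOR over homecage was above 0 for all 10 members, as it was for 43.8% of all genes tested. It was 1.81 for *Folr1* (SE 1.04, adjusted p = 0.609 in the edgeR quasi-likelihood test), 1.51 for *Ttr* (SE 1.42, adjusted p = 0.779) and 0.74 for *Kl* (SE 0.505, adjusted p = 0.674), and the other 7 lay between 0.81 for *Enpp2* and 1.48 for *Aqp1*. The median over the members was 1.19, against −0.02 over all genes tested. Adjusted p ranged from 0.609 to 0.779 over the members, and 0 had an unadjusted p under 0.05, against 10.1% of all genes tested. With 1 RUVs factor, an estimated term for unwanted variation of the kind the study used, in the likelihood ratio test of edgeR, 8 of 10 members had an unadjusted p under 0.05, against 9.75% of all genes tested, and their lowest adjusted p was 0.0581, for *Otx2*. When the group labels were exchanged between libraries in an exact permutation test of log2 CPM, taken as two-sided, p ranged from 0.4 for *Otx2* to 0.657 for *Enpp2* and *Prlr* over the 10 members, where the smallest p that 4 against 4 libraries allow is 0.0286. The members were chosen with these results known, so that the p-values describe the fit and support nothing further.

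The size of the members' fold changes rested largely on SOR replicate 1, and 7 of the 10 members kept a value above 0 without it. Without that library the fold changes were −0.27 for *Calml4*, −0.01 for *Kl* and *Aqp1*, 0.16 for *Ttr*, 0.18 for *Otx2* and 0.37 for *Slc4a5*, with a median of 0.06 over the members. *Enpp2*, *Folr1*, *Clic6* and *Prlr* then lay between 0.00441 and 0.0896. With any of the other 7 libraries left out, every member kept a fold change above 0, and the lowest of these values was 0.55, for *Kl*. For every member the difference between the group means was smaller than the SD of the SOR group.

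**Figure D4:**
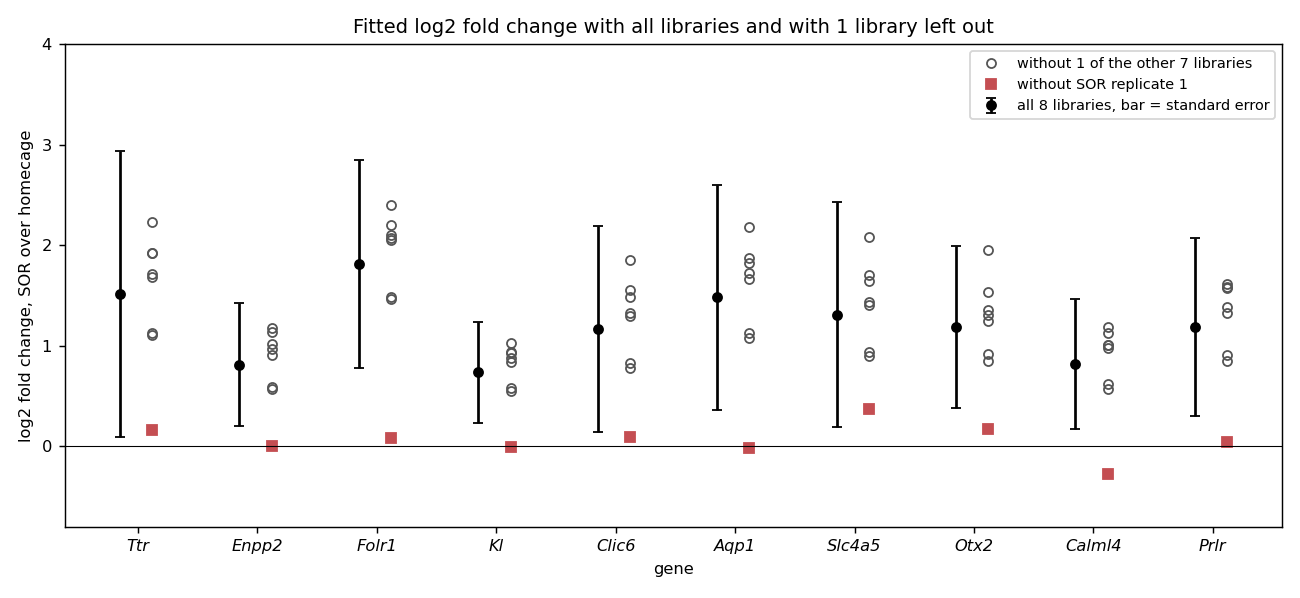
Fitted log2 fold change of SOR over homecage (vertical axis) for the 10 members. Black points with bars are the fit to all 8 libraries with its standard error, open circles the fits without 1 of the other 7 libraries, and red squares the fit without SOR replicate 1, which lies between −0.27 and 0.37 for every gene.

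34 further genes of the choroid plexus epithelium mostly moved with the members. They were listed for their known expression there, with earlier results of these data known, so that their counts are a description and no test. 0 of the 34 were called (0.173% of all genes were), and 0 had an unadjusted p under 0.05 (10.1% of all genes). All 34 had a fitted log2 fold change above 0 (43.8% of all genes), with a median of 0.88 that fell to 0.03 without SOR replicate 1. SOR replicate 1 was the highest library for 32 of them (15.1% of all genes), and 30 had the same 3 lowest libraries as the members (2.55% of all genes). The 8 with the highest mean CPM were *Slc4a10*, *Trpm3*, *Slc12a2*, *Tmem72*, *Car12*, *Slc4a2*, *Igfbp2* and *Htr2c*, and several of these are also made by neurons or glia. *Igfbp2*, a carrier of insulin-like growth factors, spanned 9.87 to 73.9 CPM, a range of 7.48 times, and *Htr2c*, the serotonin receptor 2C, spanned 11.9 to 47.5 CPM. *Tmem72*, a membrane protein, spanned 27.4 to 85.6 CPM, and *Car12*, a membrane-bound carbonic anhydrase, 20.1 to 59.2 CPM. *Trpm3*, a cation channel, and *Slc4a2*, an anion exchanger, ranged by 2.35 and 2.28 times. *Slc12a2*, the sodium potassium chloride cotransporter, and *Slc4a10*, a sodium bicarbonate transporter that many neurons make, ranged by 1.33 and 1.16 times. *Slc4a10*, *Slc4a2*, *Slc29a4* and *Stra6* were the exceptions in the order of the lowest libraries, and *Slc4a10* and *Stra6* in the highest library; *Slc29a4* and *Stra6* were named after their values were seen.

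The genes outside the members whose log2 level followed the choroid level most closely over the 8 libraries were *1500015O10Rik*, *Wfdc2*, *Lbp*, *Emb*, *Cldn2*, *Kcnj13*, *Abca4*, *Prr32*, *Kif9* and *Krt18*, by Pearson correlation, with r from 0.996 down to 0.989. 6 of these 10 were in the list of 34, and *Lbp*, *Emb*, *Prr32* and *Kif9* were in no list. After SOR replicate 4 and homecage replicate 2, the libraries farthest from the median level, were left out, r was at least 0.990 for each of them. They differed in range: *Prr32* went from 0.0281 to 5.67 CPM, *Lbp* from 3.08 to 31.3 CPM, and *Emb* from 21.6 to 43.6 CPM. An r of at least 0.9 was reached by 118 of the 16342 genes outside the members that averaged 1 CPM or more. The points share their libraries, and 3 low libraries and 1 high library carry much of any such r, which is given with no test.

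Markers of neighbouring tissue had narrower ranges than the members, with a median ratio of highest to lowest library of 2.93 for stroma and leptomeninges, 2.07 for ependyma and 1.89 for red blood cells, beside 53.6 for the members. Stroma and leptomeninges surround the vessels of the choroid plexus and the brain surface, and their 15 listed genes summed to 48.9 to 97.9 CPM in homecage and 78.7 to 154 CPM in SOR, highest in SOR replicate 1 and lowest in homecage replicate 2. Of the 15, 12 were highest in SOR replicate 1, against 15.1% of all genes tested. The same 3 lowest libraries as the members were found for 3 of the 15, against 2.55% of all genes tested. In SOR replicate 4 the median level of these genes was 0.15, where that of the members was −2.41. Among them *Igf2*, an insulin-like growth factor, ranged from 7.16 to 53.8 CPM and was 1 of these 3, and *Dcn*, decorin, ranged from 6.63 to 20.3 CPM. The 14 genes of ependyma, the ciliated cells that line the ventricle, summed to 51.9 to 67.6 CPM in homecage and 47.7 to 78.1 CPM in SOR. Of the 14, 9 were highest in SOR replicate 1 and 0 had the same 3 lowest libraries as the members. *Foxj1*, the regulator of cilia, was at 20.8 CPM in SOR replicate 1 and 11.2 to 14.6 CPM elsewhere, and *Ccdc153* at 5.04 to 9.92 CPM. The 5 red blood cell genes, with *Hbb-bs* and *Hba-a2* leading, summed to 177 CPM in SOR replicate 1, 184 CPM in SOR replicate 4 and 98.6 to 127 CPM elsewhere, so that blood was high in the library with the highest and in the library with the lowest choroid level. In these 3 lists 0 genes were called by edgeR, and 0 of 15 genes of stroma and leptomeninges, 1 of 14 of ependyma and 2 of 5 of red blood cells had an unadjusted p under 0.05, against 10.1% of all genes tested. Their part in the result of the members was not tested.

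The other lists had narrower ranges than the members, by the median over each list. The 16 genes of hippocampal neurons, led by *Zbtb20* and *Neurod6*, summed to 1658 to 1928 CPM in homecage and 1757 to 1910 CPM in SOR, and none was highest in SOR replicate 1. The 13 endothelial genes, led by *Flt1* and *Slco1a4*, summed to 198 to 237 CPM in homecage and 211 to 217 CPM in SOR. Of the 13, 0 were highest in SOR replicate 1, against 15.1% of all genes tested. The same 3 lowest libraries as the members were found for 0 of the 13, against 2.55% of all genes tested. By a looser count, 11 of the 13 had their lowest value in 1 of these 3 libraries, and the share of all genes for that count was not taken. *Mbp*, myelin basic protein, which led the list of mature oligodendrocytes, lay at 2182 to 2370 CPM in homecage and 1813 to 2293 CPM in SOR. The 11 genes of thalamus and habenula, led by *Rora* and *Plekhg1*, came to 182 to 221 CPM in homecage and 156 to 196 CPM in SOR. In these 4 lists 0 genes were called by edgeR. An unadjusted p under 0.05 was found for 1 of 16 genes of hippocampal neurons, 2 of 13 of endothelium and 5 of 16 of mature oligodendrocytes. For thalamus and habenula it was 0 of 11, and over all genes tested 10.1%. Of the 16 genes of mature oligodendrocytes, 1 had a log2 fold change above 0, against 43.8% of all genes tested, and the median over that list was −0.19. Of 12 genes that handle retinol and thyroxine, the cargo of transthyretin, 0 were called, 1 had an unadjusted p under 0.05, and their median log2 fold change was 0.18. Their median level, like that of the members, was highest in SOR replicate 1 (0.29) and lowest in homecage replicate 2 (−0.20), SOR replicate 4 (−0.14) and homecage replicate 3 (−0.10), with 5 of the 12 highest in SOR replicate 1 and 3 of the 12 sharing all 3 lowest libraries. Among them *Thra*, a thyroid hormone receptor, was at −0.01, and *Dio2*, the deiodinase of astrocytes that activates thyroxine, passed on the adjusted p alone, as 0.309% of all genes did (log2 fold change 0.34, SE 0.0473, adjusted p = 0.0144 in the edgeR quasi-likelihood test). Of 12 genes listed as immediate early genes, a class that neurons switch on after activity, 10 were called higher in SOR, against 0.15% of all genes tested. *Arc* was at 85.4 to 97.0 CPM in homecage and 218 to 266 CPM in SOR, and *Sgk1* at 48.1 to 63.8 CPM in homecage and 118 to 153 CPM in SOR. For *Sgk1*, the paper reports induction after learning in oligodendrocytes. This list was also chosen with earlier results of these data known, so that its counts are a description and no test. Of these 12 genes, 11 did not overlap between the groups, against 6.94% of all genes tested. *Npas4*, named after its values were seen, overlapped, with a log2 fold change of −0.49. The members overlapped between the training groups in all 10 cases, as most genes tested did.

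**Figure D5:**
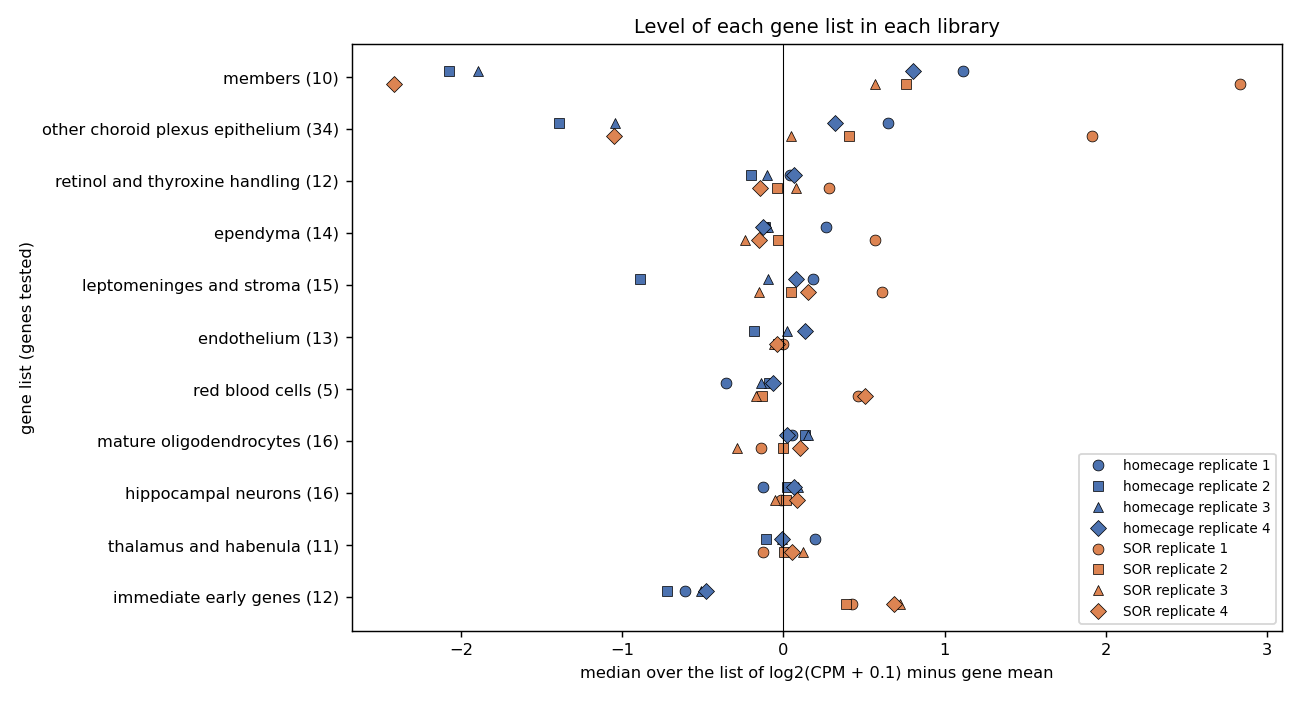
Level of each gene list in each library (horizontal axis, median over the list of the log2 of CPM plus 0.1 minus the gene mean), with the number of genes tested after each name. Blue points are homecage libraries, orange points SOR libraries, and shapes are replicate numbers. The members run from −2.41 to 2.83 with both groups mixed, while the immediate early genes lie from −0.72 to −0.48 in homecage and from 0.39 to 0.72 in SOR.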

How the data were processed

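RNA was extracted from dissected dorsal hippocampi. The paper's methods name a stranded total RNA kit with ribosomal RNA depletion, and the labels name polyA RNA. Reads were aligned with STAR and counted with featureCounts within bcbio-nextgen, on mm10 per the labels. The values deposited by the authors are estimated counts per gene from a tximport summary, not normalized, of which 52.55% are not whole; the quantifier behind the summary and its scaling are not given in the sources used here. Total counts per library lay between 51406011 and 81525977. P-values measure the spread between single libraries of separate mice.

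Members and gene lists were chosen with earlier results of these data known. Gene positions came from GENCODE M21, where 54495 of the 54532 genes were found. Counts were rounded and filtered with filterByExpr, libraries were scaled to the upper quartile, and groups were compared with the quasi-likelihood test of edgeR 4.0.16 in R 4.3.3, with Benjamini-Hochberg adjustment over the 22018 genes tested. No RUVs factor was used, as the number the study used is not stated. The standard error of a fold change on the log2 scale is its size over the root of its F value. Logs used a pseudocount of 0.1 CPM.

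Genes named were all members, the 8 genes with the highest mean CPM of the other choroid plexus list, the 2 of each other list, and the 10 with the highest correlation with the choroid level. 1 gene that this rule names is not reported here. Alternatives comprised scaling by TMM, RLE or the library size alone, filtering at over 5 counts in 2 samples or not at all, the likelihood ratio test alone or with 1 to 3 RUVs factors, DESeq2 1.42.0, limma-voom (limma 3.58.1), a replicate block, the choroid level as a covariate, no fold-change threshold, and each library left out in turn. Tables and figures were made with Python 3.11.15, pandas 2.3.3, numpy 2.4.6 and matplotlib 3.10.9.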

Additional observations from a re-analysis of the deposited data

Results flagged for a closer look

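Among 22 sets of 4 values that were checked for a sample far from the others, 2 held one. *Folr1* in SOR replicate 1, at 53.05 CPM, stood 0.869 of the range of the SOR group away from the next SOR library, and *Calml4* in SOR replicate 1, at 12.52 CPM, stood 0.865 of that range away, both above the 95% critical value of Dixon's test. Chance gives such a gap in about 1 in 20 groups, but the members were chosen by the spread of these same values, so that the gaps are a description and no test. Both sets share SOR replicate 1, in which all 10 members were highest.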

How the results depend on the processing

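All 10 members kept a log2 fold change above 0 under 12 alternatives with all libraries and no choroid level term, and 0 were called except with 2 RUVs factors, where 1 was called (*Folr1*, log2 fold change 0.77, adjusted p = 0.0406 by the edgeR likelihood ratio test), and with 3, where 2 were (*Folr1* 0.78, adjusted p = 0.0431; *Otx2* 0.80, adjusted p = 0.0251). Over the 12 alternatives, adjusted p ran from 0.0406 to 0.760 for *Folr1* and from 0.0251 to 0.777 for *Otx2*. Of the 34 other choroid plexus genes 1, *Col8a2*, was called with 2 and with 3 of these factors. The cause was not tested. Leaving out 1 library gave 0 to 0 members and 0 to 0 of the other genes called, and the median ratio of highest to lowest library was 12.1 to 53.6, lowest without SOR replicate 1. Without SOR replicate 1 the log2 fold change turned for 3 members, and over the libraries left out it ran from −0.0107 to 1.02 for *Kl*, from −0.0142 to 2.18 for *Aqp1* and from −0.27 to 1.18 for *Calml4*. The 38 calls over all genes became 105 with the likelihood ratio test, 112 with DESeq2, 134, 191 and 203 with 1, 2 and 3 RUVs factors, 68 without a fold-change threshold and 22 to 38 with 1 library left out (22 without homecage replicate 2, 25 without homecage replicate 4). With the choroid level as a covariate 34 genes were called, 32 of them among the 38; the members make that covariate, and 7 of 10 then had a fold change above 0, with −0.02 for *Aqp1*, −0.04 for *Prlr* and −0.02 for *Calml4*. At an unadjusted p under 0.05, 8, 6 and 5 members passed with 1, 2 and 3 RUVs factors, 1 without homecage replicate 1 and 2 without SOR replicate 4.

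Same-numbered libraries of the groups correlated at −0.0865 to 0.1 in their deviations from the group means, and others at −0.234 to 0.203. With so few libraries, these values cannot settle whether the numbers pair the mice, which the sample titles do not state. With the replicate block 30 genes and 0 members were called. Few reads limit *Slc4a5* and *Aqp1* in the 3 lowest libraries.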
